A study of Mus musculus with 6 samples.

Results

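Synaptic vesicle, SNARE and active zone genes were followed in mouse ventral midbrain cells in primary culture. This part of the embryonic brain gives rise to the dopamine neurons of the adult midbrain. The 32 genes were chosen by name from the 42396 genes of the deposited count tables, by a rule that uses no measured value. Earlier results of these data were known when the choice was made. The genes comprise 3 synapsins, 5 vesicle membrane proteins, 4 SNARE proteins, 8 synaptotagmins, 6 regulators of release, 5 active zone scaffolds and 1 endocytic adaptor. The cultures were made from wild-type embryos of embryonic day 14 at 150000 cells per well and were infected when plated, with lentivirus at a multiplicity of 5. One group of 3 libraries received a knockdown hairpin against circRmst (pll3.7-shRmstI), a circular RNA of the gene Rmst, and the other group of 3 received a scrambled hairpin (pll3.7-Scr2). All 6 libraries therefore carry a lentiviral hairpin, and all were harvested after 3 days in vitro. From each condition 2 to 3 wells were collected, and 3 independent cultures are stated. Which libraries share a culture is not given, so p-values measure the spread between these libraries, which may be partly technical.

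A presynaptic terminal stores transmitter in vesicles and releases it when calcium enters. Synapsins hold vesicles in reserve pools, active zone scaffolds and Munc13 proteins (Unc13 genes) dock and prime them, and the SNARE proteins of vesicle and plasma membrane pull the membranes together. Synaptotagmins sense the calcium, complexins hold and then help the SNARE complex, and adaptors such as AP180 retrieve the vesicle membrane by clathrin. In developing neurons many of these genes are switched on before synapses form, when their products travel along growing axons.

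Expression was measured as counts per gene from RNA depleted of ribosomal RNA, with between 27248934 and 43646521 counts per library. CPM here are counts scaled to library size with TMM factors, and FPKM are the authors' values per kilobase of transcript. Rmst, the host gene of the targeted circle, stood at 105, 97.1 and 115 CPM in the knockdown libraries and 115, 117 and 124 CPM in the control libraries. Linear and circular transcripts both enter this count, so it does not check the knockdown. The label calls the cells dopamine neurons. Markers of dopamine neurons were present, with Th, the rate-limiting enzyme of dopamine synthesis, at 36.9, 51.6 and 59.5 CPM in knockdown libraries and 40.7, 48.1 and 60.9 CPM in control libraries. Other cells were present too. Averaged over the 6 libraries, Th was at 13.6 FPKM, the GABA synthesis gene Gad1 at 43.0 FPKM and the radial glial gene Fabp7 at 332 FPKM. The oligodendrocyte gene Mbp had 96.9, 88.7 and 92.9 CPM in knockdown libraries and 119.8, 87.5 and 129 CPM in control libraries. Microglia also left a trace (C1qb, 4.66 to 6.18 CPM in knockdown libraries and 3.76 to 5.50 CPM in control libraries). Of the endothelial markers, Kdr had 15.02 to 17.2 CPM in knockdown libraries and 13.8 to 16.7 CPM in control libraries. The others were far lower, with Pecam1 at 0.781 to 1.10 CPM in knockdown libraries and 0.903 to 1.04 CPM in control libraries. Flt1 had 1.15 to 1.91 CPM in knockdown libraries and 1.20 to 2.75 CPM in control libraries. The level of endothelial cells cannot be read from Kdr alone. Of other defining markers, Mog had 2 counts, Slc17a7 had 29, Cdh5 had 13 and Tie1 had 5 over all libraries. Aif1 and Cldn5 were listed at 0, which in these count tables does not show absence, since genes with FPKM values such as Rab3a were listed at 0 too.

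The regions around the transcription starts of Syn1, Syp and Rab3a are shown, since each is the gene with the highest FPKM of its class and the 3 genes differ in which short motifs they hold. They run from 250 bases before to 50 bases after the start, and come from RefSeq on GRCm38.p6. Capitals mark 4 motifs searched on both strands, with any overlap merged. They are GGGCGG (the box bound by Sp1), TATAAA (the core bound by the TATA-binding protein), CGTCA (part of the cyclic AMP response element) and CAGCACC (the left part of the RE1 site bound by the repressor REST). Each is written along the strand of its gene: Syn1 at chrX:20920869-20921168 (minus strand), Syp at chrX:7638330-7638629 (plus strand) and the upstream start of Rab3a at chr8:70754453-70754752 (plus strand).
Syn1: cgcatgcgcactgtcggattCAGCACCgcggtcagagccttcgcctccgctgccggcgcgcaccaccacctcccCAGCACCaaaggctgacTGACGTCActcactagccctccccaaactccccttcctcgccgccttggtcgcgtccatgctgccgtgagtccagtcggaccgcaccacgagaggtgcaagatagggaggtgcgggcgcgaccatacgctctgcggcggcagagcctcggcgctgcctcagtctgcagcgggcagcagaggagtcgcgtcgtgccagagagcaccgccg
Syp: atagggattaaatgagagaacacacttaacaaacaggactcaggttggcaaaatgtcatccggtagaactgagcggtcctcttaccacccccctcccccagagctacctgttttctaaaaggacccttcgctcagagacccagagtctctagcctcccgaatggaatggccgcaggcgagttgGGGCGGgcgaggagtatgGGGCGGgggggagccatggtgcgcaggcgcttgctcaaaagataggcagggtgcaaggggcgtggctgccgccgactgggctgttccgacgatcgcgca
Rab3a: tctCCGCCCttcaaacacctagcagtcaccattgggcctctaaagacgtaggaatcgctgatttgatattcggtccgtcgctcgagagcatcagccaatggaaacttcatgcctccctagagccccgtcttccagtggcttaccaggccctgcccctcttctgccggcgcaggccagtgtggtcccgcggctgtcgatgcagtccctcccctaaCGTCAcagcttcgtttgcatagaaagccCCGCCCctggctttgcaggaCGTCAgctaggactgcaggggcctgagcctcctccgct
The Syn1 window holds CAGCACC 2 times and CGTCA on both strands, where they overlap as one palindrome. The Syp window holds GGGCGG 2 times, and that of Rab3a holds it 2 times on the other strand beside CGTCA 2 times. RefSeq windows were matched for 25 of the 32 genes, 35 windows in all, some of them overlapping starts of one gene. GGGCGG was found in 24 of the 35 (68.6%), against 35.7% of all 32851 windows. TATAAA was found in 2 (5.71%), against 13.6% of all windows, and CAGCACC in 3 (8.57%), against 7.14%. Both TATAAA hits were in windows of Sv2b, on the strand opposite to the gene. The element CGTCA was found in 6 (17.1%), against 20.8%. The median share of G and C was 62.3% in these windows and 52.7% in all windows.

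None of the presynaptic genes passed the test between circRmst knockdown and control. In edgeR's quasi-likelihood test over 17439 genes, 0 were called at an adjusted p under 0.05 (0% of all genes). For 30 of the 32 genes the counts passed the filter on low counts, and each of these had an adjusted p of 1.00. At an unadjusted p under 0.05 there was 1, Syt5, against 1.10% of all genes tested. DESeq2, which called 0.00351% of 28457 genes, called 0 of the 30, with 1 at an unadjusted p under 0.05 (0.615% of all genes). Limma voom called 0 (0% of all genes), with 1 at an unadjusted p under 0.05 (1.10%). With no filter on low counts, 0.0386% of 28463 genes passed in edgeR and 0 of the 30, of which 1 had an unadjusted p under 0.05 (2.07% of all genes). Of the 30, 11 were above the control and 19 below it. Their median log2 fold change was -0.03, while that over all genes tested was -0.0060 with 51.9% below. This direction depended on single libraries. Without knockdown replicate 1 there were 9 of 30 below and the median was 0.05. Without control replicate 2 there were 15 of 30 below and the median was 0.02. The shift was larger without knockdown replicate 2 (22 of 30 below, median -0.07) and without knockdown replicate 3 (23 of 30 below, median -0.07).

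The intervals were narrow. The 95% interval of the fold change lay within 1.5-fold in either direction for 28 of the 30 genes and within 2-fold for 30 of 30. Among all genes of at least 1 CPM those shares were 78.2% and 95.7%. That set was not matched for level and reaches below the 30 genes, of which the lowest, Syt2, had a mean of 6.92 CPM in the knockdown. The difference in shares therefore does not show that these genes are unusually stable. The 2 genes whose intervals reached beyond 1.5-fold were Syt5 and Pclo. The estimates themselves ran from -0.40 for Syt5 to 0.16 for Unc13b on the log2 scale.

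**Figure D1:**
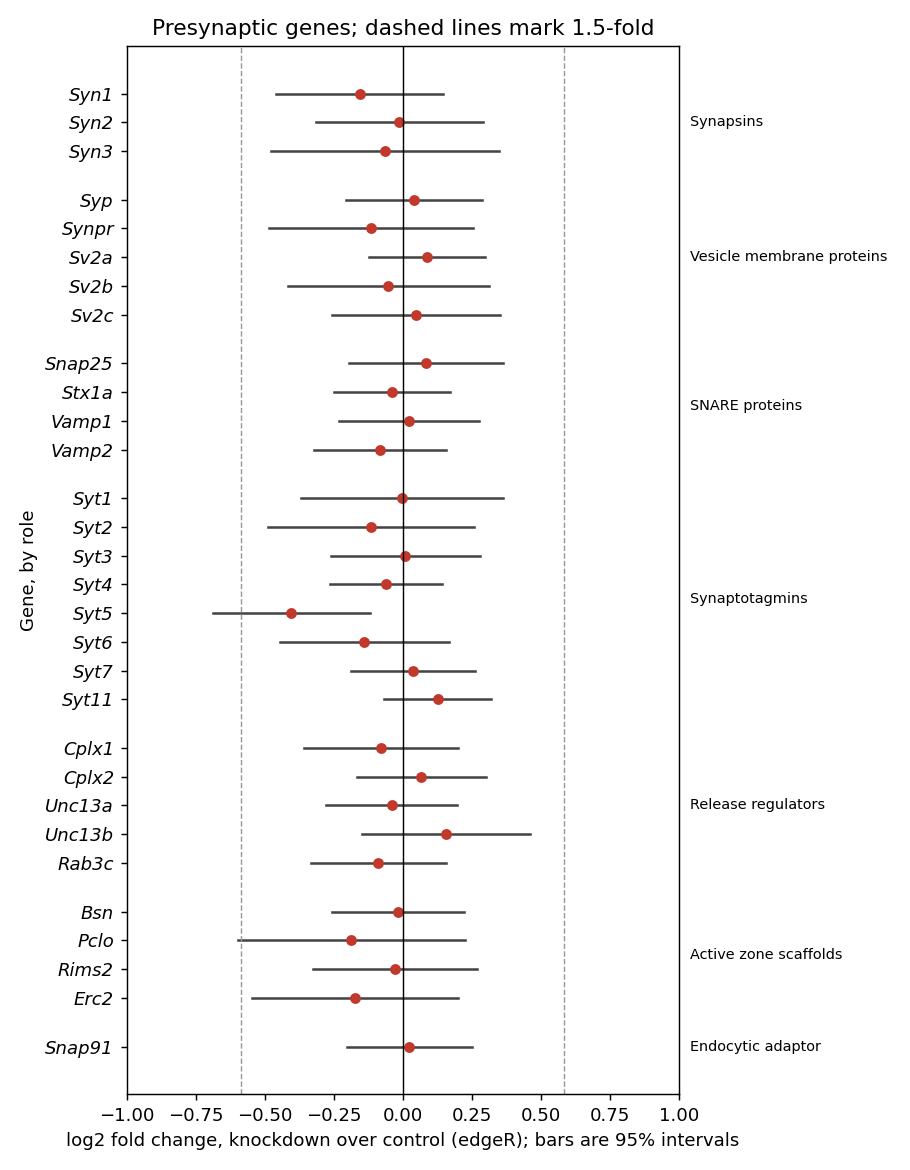
Log2 fold change of 30 presynaptic genes (horizontal axis, knockdown over control, points) with 95% intervals (bars) from edgeR, grouped by role down the page. Every interval but that of Syt5 includes 0, and 28 of 30 lie between the dashed lines at 1.5-fold.

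Per kilobase of transcript, the small GTPase gene Rab3a led the 32 genes with a mean over 6 libraries of 149 FPKM when its 2 annotated entries were summed, and the calcium sensor gene Syt2 was last with 0.590 FPKM. Vamp2 (81.9 FPKM) and Syp (80.5 FPKM) followed Rab3a and overlapped each other across the libraries. Then came Sv2a (52.1 FPKM), Syt1 (48.1 FPKM), Syt11 (47.1 FPKM), Syt4 (46.1 FPKM) and Rab3c (43.1 FPKM), whose library values overlapped from each to the next. The order within families was the same in all 6 libraries for each pair compared. Vamp2, the main vesicle SNARE of the forebrain, exceeded Vamp1, the form of spinal cord and brainstem terminals, by 19.6 to 26.2 times in FPKM. Syt1 exceeded Syt2 by 63.9 to 96.7 times, and Unc13a, the main priming factor, exceeded Unc13b by 2.11 to 2.92 times. The margin was narrow for complexins, with 1.14 to 1.61 times as much Cplx2 as Cplx1. Between the groups these ratios overlapped, for example 1.41 ± 0.197 for Cplx2 over Cplx1 in knockdown libraries and 1.22 ± 0.113 in control libraries (SD, n = 3 each).

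**Figure D2:**
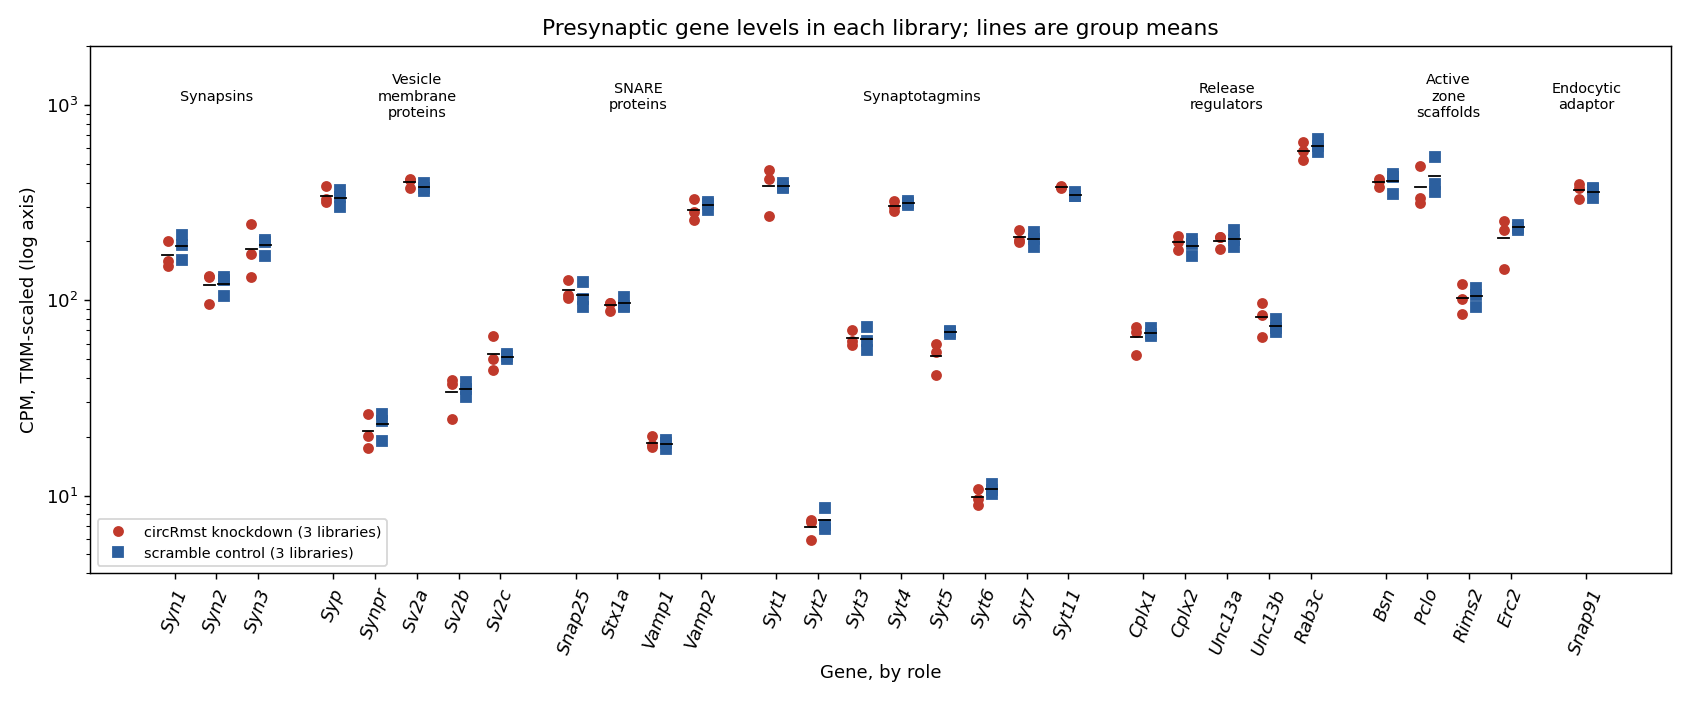
CPM of each of 30 presynaptic genes (vertical log axis) in the 3 knockdown libraries (red circles, left) and the 3 control libraries (blue squares, right), with group means as lines. Groups overlap for 28 genes, and do not for Syt5, lower in the knockdown, and Syt11, higher.

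Among the synapsins, Syn1 had 149.6, 199.6 and 159 CPM in knockdown libraries, against 216, 191 and 159.7 CPM in control libraries. The groups overlapped. The means were 169.5 ± 26.5 CPM in the knockdown and 189 ± 28.2 CPM in the control (SD, n = 3 each), a log2 fold change of -0.16 with a standard error of 0.14. With 1 library left out it ran from -0.29 (without knockdown replicate 2) to -0.05 (without control replicate 1). Syn2 and Syn3 had -0.01 and -0.06 on the same scale. Syn3 varied most among all 30 genes, with its highest library 1.87 times its lowest. Each synapsin gene holds a gene of the tissue inhibitors of metalloproteinases inside it on the opposite strand, Timp1 in Syn1, Timp4 in Syn2 and Timp3 in Syn3. The library kit keeps the strand, but the sources used here do not give the strand setting of the counting, so reads of such nested genes could not be told apart. In all, 7 of the 32 genes overlap another protein-coding gene.

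Of the vesicle membrane genes, 3 lay above and 2 below the control, with fold changes between -0.12 and 0.09 on the log2 scale. Syp encodes synaptophysin, the abundant 4-span protein of the vesicle. It had 331, 382 and 316 CPM in knockdown libraries, against 299, 364 and 338 CPM in control libraries, and the groups overlapped. Sv2a, a transporter-like vesicle protein, had 411, 419 and 374 CPM in knockdown libraries, against 360.1, 398 and 376 CPM in control libraries. Its log2 fold change of 0.09 ± 0.10 (SE) had the smallest p of the class, 0.383 unadjusted in edgeR, and ran from 0.05 (without knockdown replicate 2) to 0.14 (without knockdown replicate 3). The other forms were scarcer, with Sv2b at 3.47, Sv2c at 6.34 and the synaptophysin relative Synpr at 5.70 FPKM over the 6 libraries.

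The SNARE genes stayed within 0.08 log2 units of the control in either direction. Vamp2, the vesicle SNARE, had 258, 328 and 281 CPM in knockdown libraries, against 310.1, 318 and 289 CPM in control libraries. The highest and the lowest of these 6 values were both knockdown libraries. The log2 fold change of Vamp2 was -0.08 ± 0.11 (SE), and it was -0.18 without knockdown replicate 2 and -0.0067 without knockdown replicate 1. For the plasma membrane SNAREs it was 0.08 ± 0.13 (SE) for Snap25 and -0.04 ± 0.10 (SE) for Stx1a, the syntaxin of the release site.

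Synaptotagmins held both genes whose libraries did not overlap between the groups. Without a choice of direction, 5.20% of all genes tested did not overlap in this way, and among the 30 there were 2. Syt5, a calcium-binding synaptotagmin, had 59.3, 54.1 and 41.6 CPM in knockdown libraries, against 68.5, 69.8 and 66.8 CPM in control libraries. The control libraries lay close together, and knockdown replicate 3 was the lowest. The means were 51.7 ± 9.09 CPM in the knockdown and 68.4 ± 1.504 CPM in the control (SD, n = 3 each). Its log2 fold change of -0.40 ± 0.13 (SE) had a 95% interval of -0.69 to -0.12. The unadjusted p in edgeR was 0.0095 and the adjusted p 1.00, so it is not a call. With 1 library left out, the log2 fold change ran from -0.52 (without knockdown replicate 1) to -0.26 (without knockdown replicate 3).

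Syt11, a synaptotagmin that does not bind calcium, had 382, 373 and 381 CPM in knockdown libraries, against 359.7, 339 and 343 CPM in control libraries. All knockdown libraries lay above all control libraries, by a small margin. The log2 fold change was 0.13 ± 0.09 (SE), with an unadjusted p of 0.181 and an adjusted p of 1.00 in edgeR. Of the 30 genes it varied least, with its highest library 1.13 times its lowest. Syt1, the main calcium sensor of fast release, had 269, 419 and 462 CPM in knockdown libraries, against 378, 397 and 377 CPM in control libraries. The knockdown libraries lay on both sides of the control, and the log2 fold change was -0.0030 ± 0.17 (SE). Syt4, Syt7, Syt3, Syt6 and Syt2 had fold changes between -0.14 and 0.04 on the log2 scale. Syt6 has a second annotated entry, listed at 0 counts in all libraries but at 1.38 FPKM, beside 2.55 FPKM at its chromosome entry. On FPKM summed over both entries its log2 difference was -0.26 ± 0.14 (SE, unadjusted p 0.115 in limma), against -0.14 on counts.

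Among the release regulators with counts, 2 lay above and 3 below the control. Unc13b, the less abundant Munc13, had 83.7, 64.7 and 97.0 CPM in knockdown libraries, against 79.7, 71.7 and 68.9 CPM in control libraries, a log2 fold change of 0.16 ± 0.14 (SE). The groups overlapped. The value rested on single libraries, being 0.03 without knockdown replicate 3 and 0.30 without knockdown replicate 2 (unadjusted p 0.033, adjusted p 1.00 in edgeR). Rab3c, a relative of Rab3a, had 523, 579 and 643 CPM in knockdown libraries, against 669, 616 and 570.4 CPM in control libraries, a log2 fold change of -0.09 ± 0.11 (SE). Cplx1, Cplx2 and Unc13a had -0.08, 0.07 and -0.04.

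Rab3a and Rims1 could not be tested on the counts, since both were listed at 0 in all 6 libraries. Rab3a encodes the vesicle GTPase that Rims1, the active zone scaffold RIM, binds. Both genes have a second annotated entry on an alternate sequence. In the count tables the second entry of Rab3a held 406, 350 and 339 counts in knockdown libraries and 229, 352 and 226 in control libraries, and that of Rims1 held 547, 527 and 731 in knockdown libraries and 595, 599 and 384 in control libraries. The sources used here do not say how reads that match both entries were counted, so these few counts are no measure of either gene. The FPKM tables give values at both entries. Summed over the 2 entries, Rab3a had 94.9, 179 and 109 FPKM in knockdown libraries, against 143, 177 and 189 FPKM in control libraries. Knockdown replicates 1 and 3 were the lowest of the 6, while knockdown replicate 2 lay within the control range. On the log2(FPKM + 0.1) scale the difference was -0.46 ± 0.26 (SE), with an unadjusted p of 0.127 and an adjusted p of 1.00 in limma. Rims1 had 8.86, 14.1 and 13.05 FPKM in knockdown libraries, against 15.2, 14.4 and 17.1 FPKM in control libraries. On this sum the groups did not overlap, as for 5.82% of the 14007 genes tested on summed FPKM. At the chromosome entry alone they did overlap, with 3.90, 5.96 and 5.62 FPKM in knockdown libraries and 6.36, 5.89 and 6.76 FPKM in control libraries, and the difference was -0.31. On the sum the difference of Rims1 was -0.40 ± 0.18 (SE), with an unadjusted p of 0.0693 and an adjusted p of 1.00 in limma. It was -0.20 without knockdown replicate 1 and -0.53 without knockdown replicate 2. For Rab3a, too, leaving out knockdown replicate 1 gave a smaller difference, -0.27. Leaving out knockdown replicate 2 gave a larger one, -0.73 (unadjusted p 0.0068, adjusted p 0.512 in limma). In the limma fit of all 6 libraries 0 of 14007 genes were called (0%), and 471 (3.36%) had an unadjusted p under 0.05. On counts with the entries summed, which are the counts of the second entry alone, the direction was the other one, 0.29 for Rab3a and 0.06 for Rims1. Those few counts, as above, are no measure of either gene.

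**Figure D3:**
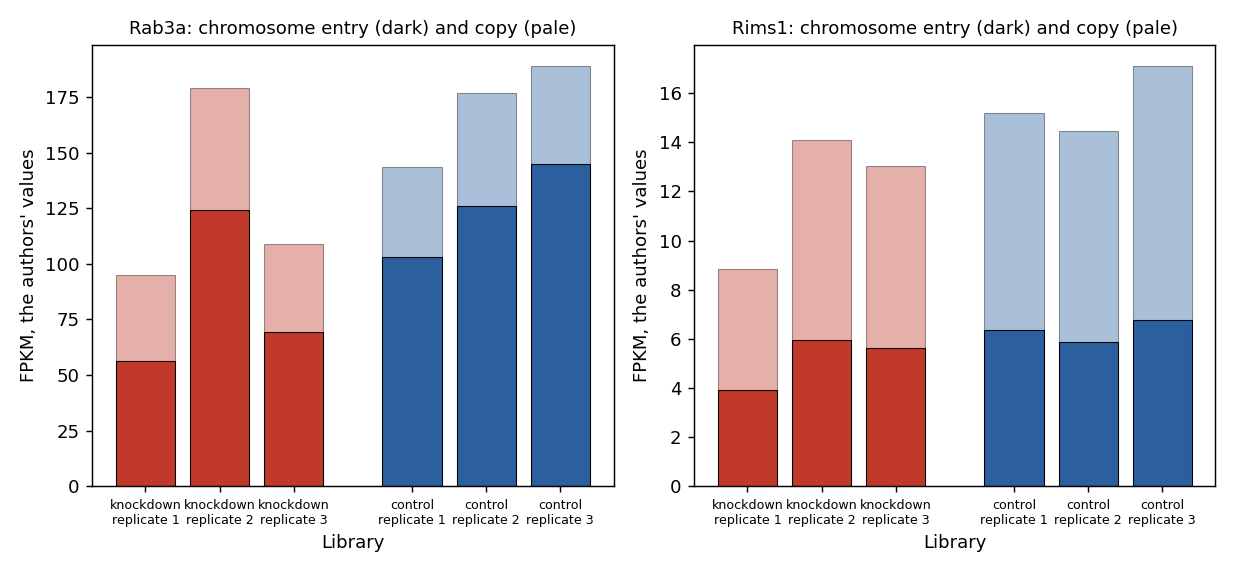
The authors' FPKM (vertical axis, from 0) of Rab3a and Rims1 in each library, stacked as the chromosome entry (dark) and the copy on an alternate sequence (pale), knockdown in red on the left and control in blue on the right. Rab3a reaches 179 FPKM in knockdown replicate 2 but 94.9 and 109 FPKM in the other knockdown libraries, and Rims1 is lowest, at 8.86 FPKM, in knockdown replicate 1.

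All 4 active zone genes with counts lay below the control, by 0.02 to 0.19 log2 units, and none was called. With the trend on genomic span removed in each library, Bsn (0.0028) and Rims2 (0.02) were above it. Erc2, the scaffold CAST of the active zone, had 145, 228 and 255 CPM in knockdown libraries, against 234, 244 and 229.8 CPM in control libraries. Knockdown replicate 1 stood apart as the lowest. The log2 fold change of Erc2 was -0.17 ± 0.17 (SE), and without that library it was 0.03. The giant scaffold gene Pclo (piccolo) had 315, 334 and 488 CPM in knockdown libraries, against 542, 393 and 358 CPM in control libraries, a log2 fold change of -0.19 ± 0.19 (SE). Its relative Bsn (bassoon) and the RIM gene Rims2 had -0.02 and -0.03. Snap91, which encodes the clathrin adaptor AP180, had 328, 377 and 391 CPM in knockdown libraries, against 374, 370.3 and 334 CPM in control libraries, a log2 fold change of 0.02 ± 0.10 (SE).

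Within each group the libraries differed, and in knockdown replicates 1 and 3 the differences followed the length of the gene on the chromosome. Knockdown replicate 1 was the lowest of the 6 libraries in 16 of the 30 genes, and knockdown replicate 3 was the highest in 12. The genes differ widely in genomic span, from 3.85 kb for Vamp2 to 856 kb for Erc2. Across the 30 genes, the deviation from the mean of the 6 libraries had a Spearman's rho with span of -0.69 in knockdown replicate 1 and 0.65 in knockdown replicate 3. It was -0.15 in knockdown replicate 2, and 0.26, 0.01 and -0.22 in control replicates 1, 2 and 3. These are descriptions across genes that share each library, and the relation was looked for after the values were seen. Since each deviation is taken from the mean of the same 6 libraries, a fall with span in 1 library favours a rise in others. The opposite signs are therefore not separate findings.

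For the 13 genes of at least 100 kb, the median deviation was -0.32, 0.06 and 0.22 log2 units in the knockdown libraries and 0.05, 0.04 and -0.07 in the control libraries. For the 17 shorter genes it was -0.06, 0.05 and -0.06 in the knockdown libraries and 0.03, 0.10 and -0.03 in the control libraries. Of the 13 long genes, 12 were below their 6-library mean in knockdown replicate 1, the exception being Unc13b at 0.12, and 12 were above it in knockdown replicate 3, the exception being Synpr at -0.11. Some shorter genes deviated as far, with Cplx1 at -0.33 in knockdown replicate 1 and Syt5 at -0.50 in knockdown replicate 3. Other genes showed the same relation. Over all 17383 genes tested with a known span, rho was -0.34, -0.03 and 0.33 in knockdown replicates 1, 2 and 3, and 0.14, 0.0015 and -0.11 in control replicates 1, 2 and 3. Over the 10265 of them with at least 10 CPM it was -0.46, -0.15 and 0.55 in the knockdown libraries and 0.25, 0.04 and -0.20 in the control libraries, so libraries of both groups carried the trend. With that trend removed in each library, the median log2 fold change of the 30 genes was -0.01 with 15 below the control. Of the 30, 0 were called (0% of all genes) and 1 had an unadjusted p under 0.05 (1.31% of all genes), and Syt5 had -0.40 (unadjusted p 0.0061, adjusted p 1.00 in edgeR). The length of the longest transcript had a rho of -0.13, -0.53 and 0.59 with the deviation of the 30 genes in knockdown replicates 1, 2 and 3. It was 0.21, -0.34 and -0.43 in control replicates 1, 2 and 3. Over 15663 genes with both lengths known it was -0.19, -0.05 and 0.27 in the knockdown libraries and 0.16, 0.04 and -0.24 in the control libraries.

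**Figure D4:**
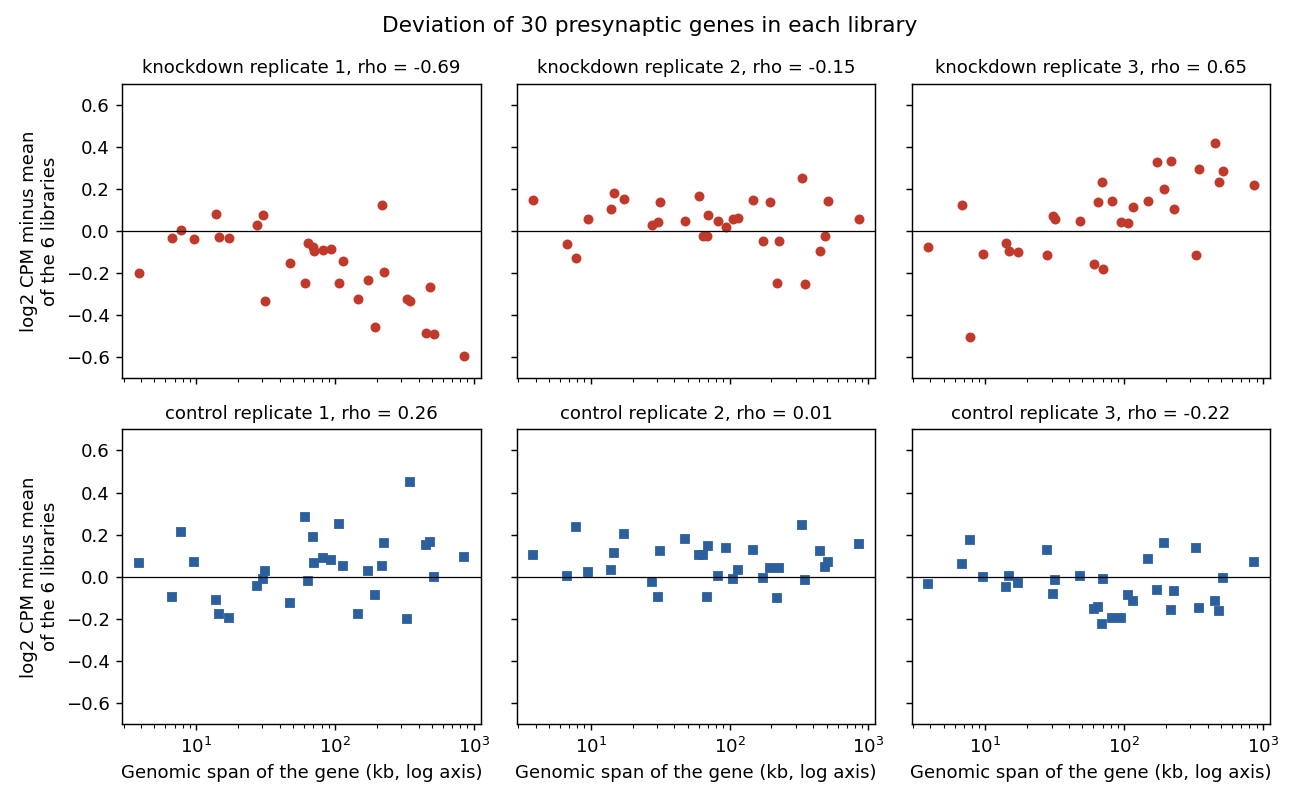
Deviation of each of 30 presynaptic genes from its 6-library mean (vertical axis, log2 CPM) against its genomic span (horizontal log axis, kb), with the knockdown libraries above and the control libraries below. The deviation falls with span in knockdown replicate 1 (rho = -0.69) and rises with it in knockdown replicate 3 (rho = 0.65), and the slopes are weaker in the other 4 libraries (rho from -0.22 to 0.26).

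Other genes of release and vesicle recycling gave the same count of calls, 0. Of 85 such genes in 3 lists, 83 could be tested, and the proton pump subunit gene Atp6v1g2 and the membrane-shaping gene Pacsin1 were listed at 0 counts but had 9.86 and 3.597 FPKM. Another pump subunit gene, Atp6v1e1, was among the 83 with 160 counts over all libraries but 53.3 FPKM, so its counts may not measure it. Of the 83, 38 were above the control and 45 below it, their median log2 fold change was -0.02, and 1 had an unadjusted p under 0.05, a share close to the 1.10% of all genes. That gene was Nsf, the ATPase that takes used SNARE complexes apart. It had 172, 218 and 204 CPM in knockdown libraries, against 222, 258 and 245 CPM in control libraries, without overlap (as for 5.20% of all genes). Its log2 fold change was -0.29 ± 0.11 (SE), with an unadjusted p of 0.026 and an adjusted p of 1.00 in edgeR. Lin7a, a scaffold gene, followed in that list with -0.17 ± 0.14 (SE), and its most abundant gene by FPKM, the SNAP relative Snap47, had 0.04 ± 0.13 (SE). Among vesicle proteins, the proton pump partner Atp6ap2 had 0.21 ± 0.11 (SE), Sypl2, at means of 0.567 CPM in the knockdown and 0.360 CPM in the control, had 0.64 ± 0.40 (SE), and the proton pump subunit gene Atp6v0c had -0.09 ± 0.10 (SE). Among recycling genes, Dnm3 (a dynamin) had -0.21 ± 0.16 (SE), Sh3gl3 (an endophilin) had -0.11 ± 0.11 (SE) and the clathrin uncoating chaperone gene Hspa8 had -0.14 ± 0.14 (SE).

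In bulk RNA, fewer neurons and less RNA per neuron cannot be told apart, so markers are given beside these values. The 30 presynaptic genes summed to 5243, 5999 and 6242 CPM in knockdown libraries and 6137, 6099 and 5589 CPM in control libraries. The 20 markers of neurons in general summed to 10615, 11895 and 11125 CPM in knockdown libraries and 11077, 11229 and 10607 CPM in control libraries, with 11 above and 9 below. Of 14 markers of dopamine neurons, 5 lay above and 9 below, and the sums were 755, 814 and 909 CPM in knockdown libraries and 776, 804 and 904 CPM in control libraries. Of 11 markers of the oligodendrocyte lineage 10 could be tested, and 10 lay below the control, with sums of 442, 372 and 449 CPM in knockdown libraries and 549, 379 and 582 CPM in control libraries. Of 11 markers of dividing cells, 9 lay below, with sums of 307, 274 and 282 CPM in knockdown libraries and 391, 273 and 345 CPM in control libraries. Their part in the presynaptic values was not tested. Markers of astrocytes and radial glia summed to 2589.6, 2439 and 2802 CPM in knockdown libraries and 2794, 2283 and 2732 CPM in control libraries. The other 6 lists (GABAergic and glutamatergic neurons, microglia, endothelial cells, fibroblasts with mural cells, and chromaffin with other secretory cells) held 0 called genes as well. Of the 8 microglia markers tested, 2 lay above and 6 below the control. Tmem119 (-0.87, at means of 0.365 CPM in the knockdown and 0.675 CPM in the control) and Cd68 (-0.39) did not overlap between the groups, as for 5.20% of all genes. Both had an unadjusted p under 0.05 in edgeR, as for 1.10% of all genes. Lack of overlap and such a p were also found for the dividing-cell markers Bub1b (-0.35) and Mcm5 (-0.34). The oligodendrocyte markers Myrf (-0.62) and Sox10 (-0.45) and, in the other direction, the fibroblast marker Col1a1 (0.35) had such a p but overlapped. The neuron marker Thy1 (-0.29) did not overlap, at an unadjusted p of 0.160 in edgeR. The summed markers of microglia ran from 27.7 to 29.2 CPM in knockdown libraries and from 28.4 to 34.5 CPM in control libraries.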

How the data were processed

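RNA was measured in 6 libraries, 3 with a circRmst hairpin and 3 with a scrambled one. The authors deposited raw counts per gene, 1 table per library, and FPKM values whose columns are those of Cufflinks, per the file headers. Cufflinks 2.2.1, bcl2fastq 2.20, DESeq2 (no version) and GRCm38 (mm10) are named in the submitters' processing notes. Aligner, read counter and strand setting were not given in the sources used here.

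Groups were compared by quasi-likelihood in edgeR 4.0.16 (under R 4.3.3), with all genes of the deposited count tables, filtered with filterByExpr (17439 left), scaled by TMM, with group alone in the design and Benjamini-Hochberg adjustment at 0.05. Intervals are at 95%. FPKM were tested with limma 3.58.1 on log2(FPKM + 0.1) at a mean of at least 0.5 FPKM. Such fold changes understate the change of low genes. Entries of one gene with a suffix were summed for this, as chosen after seeing the data, which takes each fragment to be divided between entries. Alternatives were other scalings, other filters, limma voom, DESeq2 1.42.0, a block for the replicate number, and leaving out each library. The span trend was removed by a loess fit in each library, also chosen after seeing the data. The edgeR fit and the limma fit of FPKM were tested on simulated data.

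The 32 genes and the lists were chosen with earlier results of these data known. Values in every library are given, in each class, for the gene with the highest FPKM, that with the smallest p, and any without overlap between groups; for the other lists, 2 genes with the smallest p and the 1 with the highest FPKM are named. Rab3c, Pclo and Rims1 were added after their values were seen. Counts of library pairs within a group differed beyond sampling noise (chi-square per degree of freedom 12.8 to 91.4), so none was a duplicate. Positions come from the RefSeq table of GRCm38.p6 and were identical to the authors' for 32 of 32 genes.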

Additional observations from a re-analysis of the deposited data

How the results depend on the processing

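Of the presynaptic genes, 0 were called in every alternative run. Over the whole table, 11 genes were called without the filter on low counts and 1 with DESeq2, and 0 under each other alternative. The number of presynaptic genes at an unadjusted p under 0.05 ran from 1 to 3 when 1 library was left out, 2 without knockdown replicate 2 and 3 without knockdown replicate 3, and their median log2 fold change ran from -0.07 to 0.05. Of 230 alternatives of named genes, 215 kept their direction and 15 reversed it, each with an adjusted p of at least 0.512. Syt1 was 0.0011 with DESeq2 size factors, 0.0062 with library totals, 0.0033 without the filter, 0.0015 in DESeq2, 0.034 with the span trend removed, and -0.15 to 0.20 with 1 library left out. On leaving out 1 library, Syp ran from -0.045 to 0.12, Erc2 from -0.33 to 0.033 and Snap91 from -0.019 to 0.10. On counts with entries summed, Rab3a was 0.29 and Rims1 0.059, opposite to their FPKM. These sums hold the counts of the second entry alone, since the chromosome entries were listed at 0. The cause was not tested. Replicate numbers are not stated to mark a shared culture: deviations of same-numbered libraries correlated at 0.27, 0.32 and 0.02, and knockdown replicate 3 correlated best with control replicate 1. With the replicate block, 258 genes had an unadjusted p under 0.05, against 191, with 0 called, and Syt5 had a log2 fold change of -0.42. The scarcest gene by FPKM, Syt2, had 5.95 to 7.46 CPM in knockdown libraries and 6.73 to 8.61 CPM in control libraries.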
